A study of Mus musculus with 44 samples.

Results

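The 10 genes described here make, recognize or break down prostaglandin E2, a lipid mediator that ovulating follicles require. They were chosen by name, as the cyclooxygenase genes *Ptgs1* and *Ptgs2*, the prostaglandin E synthase genes *Ptges*, *Ptges2* and *Ptges3*, the 4 E-type prostaglandin (EP) receptor genes *Ptger1*, *Ptger2*, *Ptger3* and *Ptger4*, and *Hpgd*, which encodes the enzyme that inactivates prostaglandins. All 10 were among 25865 genes with values, and the choice used no threshold on measured values. Granulosa cells, the somatic cells that surround the oocyte, came from female mice aged 3 to 4 wk, of mixed C57BL/6J and 129S5/SvEvBrd descent and primed with 5 IU of PMSG 46 h before the ovaries were collected. The cells were cultured for 4 d and then exposed for 4 h to 100 ng/mL GDF9, a growth factor secreted by the oocyte, or to vehicle. The CUT&RUN methods describe pooled cells cultured from 8 mice, and those of the RNA-seq give no number of mice. Cells of 1 line carried a PA tag on both *Smad3* alleles (*Smad3*PA/PA), whereas those of the other carried an HA tag on 1 *Smad2* allele (*Smad2*HA/+). Both treatments of a line carried the same tag, and no untagged cells are among the samples used. GDF9 signals through SMAD2 and SMAD3, and the study asked which genes these factors bind and regulate in granulosa cells. The 44 samples were 4 RNA-seq libraries (2 GDF9 and 2 vehicle, *Smad3*PA/PA according to the methods) and 40 CUT&RUN samples, in which an antibody directs a nuclease to the DNA it marks. Peak lists were used for 32 of the CUT&RUN samples, with 2 replicates for each line, antibody and treatment, and the 8 IgG samples have no values here.

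In the prostaglandin pathway, phospholipases free arachidonic acid from membranes, cyclooxygenases oxidize it to prostaglandin H2, and terminal synthases convert that product to prostaglandin E2. The lipid then acts on cells through EP receptors, of which EP2 and EP4 raise cAMP, EP3 mostly lowers it and EP1 raises calcium. In the preovulatory follicle *Ptgs2* is induced by the gonadotropin surge, and loss of *Ptgs2* or *Ptger2* in mice impairs expansion of the cumulus, the granulosa cell layer around the oocyte.

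The libraries differed between treatments in more than the genes below. The 4 RNA-seq libraries held from 8827825 to 11416005 reads in genes. The methods speak of pooled biological replicates for CUT&RUN and do not say which mice entered which RNA-seq library. The p-values therefore cover only the variation among these samples. The share of mitochondrial transcripts was 3.56% and 3.25% with GDF9, against 2.50% and 2.49% with vehicle. The nuclear noncoding RNA *Malat1* took 0.282% and 0.264% of reads, against 0.108% and 0.110%, and the part of either shift in the gene values was not tested. Markers of granulosa cells were present, with a summed level over 8 genes of 27643 and 28020 normalized counts with GDF9 and 27660 and 28594 with vehicle. This sum was mostly *Inha* (14810 and 14887 against 13383 and 14490) and *Inhba* (10768 and 11078 against 12060 and 11896). *Fshr* was low (89.6 and 79.3 against 75.8 and 82.4), and *Cyp19a1* and *Amh* stood near 0 in all 4 libraries. Within this marker list *Esr2* was called higher (log2 fold change 0.33, limma adjusted p = 0.0207) and *Nr5a2* lower (−0.29, limma adjusted p = 0.00189). Markers of theca cells (3 genes) summed to 3.02 and 1.94 against 1.15 and 2.66, those of macrophages (4 genes) to 77.5 and 82.2 against 59.7 and 71.8, and those of endothelium (4 genes) to 20.1 and 34.8 against 36.8 and 39.9. Oocyte markers (4 genes) summed to 28.2 and 46.4 against 35.6 and 40.8, and stromal markers (4 genes), which were mostly *Col1a1*, to 1479 and 1463 against 1519 and 1485.

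With GDF9, 2 of the 10 genes were called higher and 0 lower. They were *Ptgs2*, the inducible cyclooxygenase, and *Ptger2*, the receptor EP2. Calls rest on limma applied to log2(normalized count + 1) of 12597 genes whose mean reached 10, and required an adjusted p below 0.05 together with an absolute log2 fold change above 0.18. Of all genes tested, 2.44% were called higher and 0.707% lower. *Ptger3* lay under the mean of 10 and was not tested, so that the count of 2 refers to 9 genes tested. Among these 9, both GDF9 libraries lay above both vehicle libraries in 3 (*Ptgs2*, *Ptger2* and *Ptges*) and below them in 1 (*Ptges3*), against 22.0% and 23.2% of all genes tested. The median log2 fold change of the 9 was 0.04, against −0.01 over all genes tested. The groups overlapped in the other 6 of the 10. In RNA from a whole culture, a change in the number of expressing cells and a change of RNA per cell cannot be told apart.

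**Figure D1:**
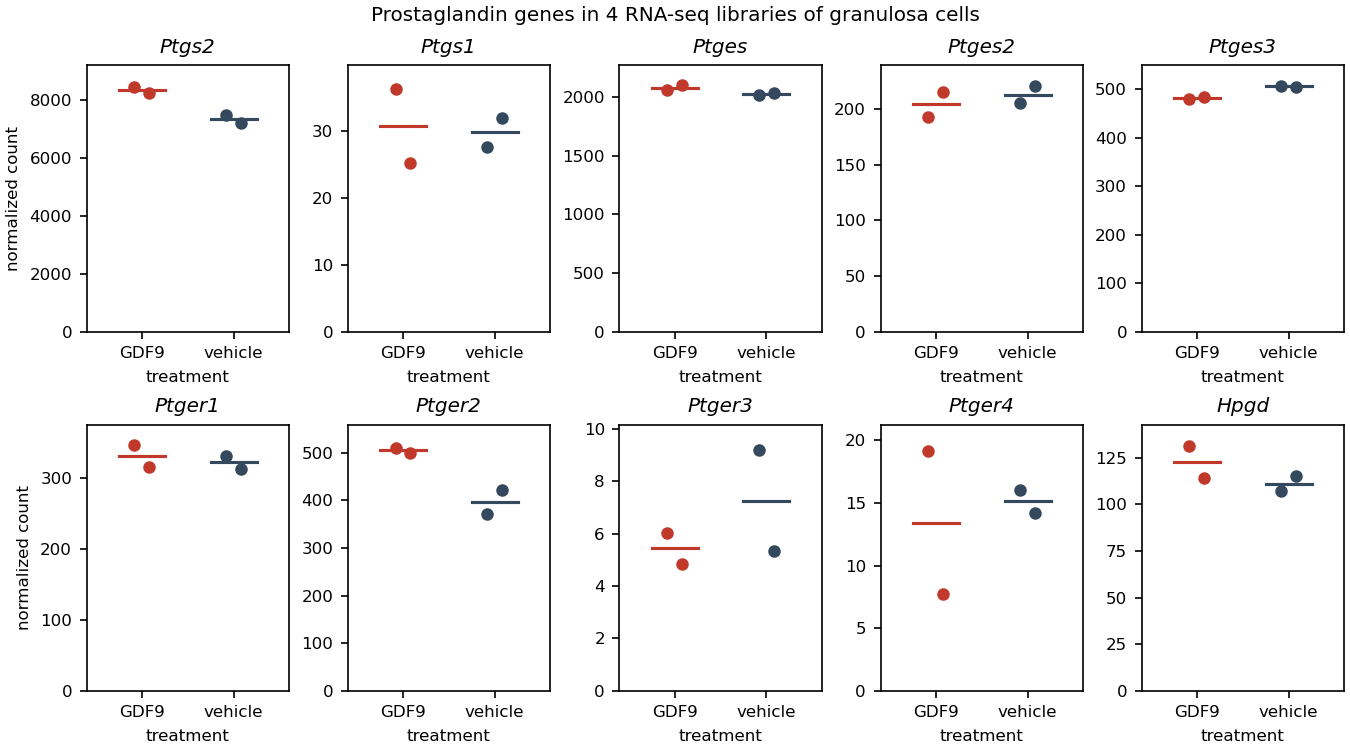
Normalized counts of the 10 genes in each RNA-seq library (points, 2 per treatment) and the mean of each treatment (bars), on a separate linear axis from 0 for each gene. GDF9 points lie clear of vehicle points for *Ptgs2* (8461 and 8231 against 7480 and 7217) and *Ptger2* (511 and 498 against 371 and 421), whereas those of *Ptger4* and *Ptgs1* overlap.

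*Ptgs2* had 8461 and 8231 normalized counts with GDF9, against 7480 and 7217 with vehicle. Both values with GDF9 were higher, and the groups did not overlap. The means were 8346 ± 163 and 7348 ± 186 (SD, n = 2 each), 13.6% higher with GDF9, with a log2 fold change of 0.18 (SE 0.04, 95% interval 0.11 to 0.26, limma adjusted p = 0.00111). The estimate lay barely past the fold limit and under it without GDF9 replicate 1 (0.16) or vehicle replicate 2 (0.16, limma adjusted p = 0.115). The dose and time of GDF9 had been chosen in preliminary work on SMAD phosphorylation and on COX2, the protein of this gene. Per kilobase of exon, taken from the curated RefSeq transcripts of each gene, *Ptgs2* was the most abundant of the 10 genes with either treatment, at 1871 ± 36.5 with GDF9 and 1648 ± 41.7 with vehicle (normalized counts per kb, SD, n = 2 each), and only 1.72% of 17869 genes with reads stood above it.

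The *Ptgs2* gene lies on the plus strand of chromosome 1, from 150100031 to 150108234 (RefSeq, GRCm38.p6, the patch release of the mm10 build used for the peaks). In the *Smad2*HA/+ line the most shared position in its 20-kb surroundings lay just upstream, from −579 to −329 bp of the start, inside *Ptgs2os*, a gene annotated on the opposite strand. It was covered in 9 of 12 SMAD or tag lists (5 of 6 GDF9 lists and 4 of 6 vehicle lists). Missing from it were both vehicle lists and the second GDF9 list of the SMAD2 antibody. As many lists or more met at some position near 60.9% of all genes, and the median gene had 11 of 12, so that this sharing is common. *Ptgs2os* itself had 7.05 and 11.6 normalized counts with GDF9 and 1.15 and 9.75 with vehicle, which overlap and were too low to test. The sequence of this position is shown with the promoter next to it, as the stretch where SMAD peaks met at the called gene. Capitals mark matches to CAGAC (a core SMAD motif), GGCGCC (a GC-rich SMAD site), TGACG (the short form of a cAMP response element) and CACGTG (an E-box) on either strand.
Ptgs2 promoter: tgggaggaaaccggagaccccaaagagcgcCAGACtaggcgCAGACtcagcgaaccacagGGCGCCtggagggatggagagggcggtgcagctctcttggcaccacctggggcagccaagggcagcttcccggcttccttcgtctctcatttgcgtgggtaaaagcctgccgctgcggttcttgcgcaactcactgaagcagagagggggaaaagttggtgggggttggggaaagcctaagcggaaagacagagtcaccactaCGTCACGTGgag
Ptgs2 shared position: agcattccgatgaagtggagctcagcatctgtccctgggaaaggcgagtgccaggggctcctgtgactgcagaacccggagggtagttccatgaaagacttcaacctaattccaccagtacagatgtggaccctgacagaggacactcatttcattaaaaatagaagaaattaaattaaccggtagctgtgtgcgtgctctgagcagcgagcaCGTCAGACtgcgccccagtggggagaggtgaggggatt
The promoter stretch spans chr1:150099781-150100055 (−250 to 24 bp, plus strand) and the shared position spans chr1:150099452-150099702 (plus strand). The 300-bp promoter window held CAGAC starting at −220, at −209 and, past the printed stretch, at 34, GGCGCC at −190, and CGTCA, the reverse of TGACG, at 13, which runs into CACGTG at 16. Of 32851 RefSeq promoter windows, from 250 bp before to 50 bp after a start, 49.6% held CAGAC, 11.9% GGCGCC, 20.8% TGACG and 7.15% CACGTG. The shared position held TGACG on the reverse strand at −366, overlapping CAGAC at −363. In windows of 251 bp at the centers of 24634 anti-HA regions of GDF9-treated *Smad2*HA/+ cells, 43.5% held CAGAC and 12.3% TGACG. A match describes these letters only and does not show that a factor bound them.

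Peaks met in both replicates over the *Ptgs2* start in the *Smad2*HA/+ line with 2 antibodies and both treatments. Anti-HA regions, which mark tagged SMAD2, ran from −1881 to 1140 bp with GDF9 (total signal 552.5 and 795.9 in the 2 replicates) and from −856 to 1408 bp with vehicle (564.2 and 313.3). SMAD3 regions ran from −1137 to 535 bp with GDF9 (381.8 and 361.9) and from −2136 to 3659 bp with vehicle (1214.7 and 782.6). Here a region is a place where peaks of the 2 replicates share 1 bp or more, and total signal is the spike-in-scaled coverage summed over a peak, so it grows with peak length. Both SMAD3 values at the *Ptgs2* start were lower with GDF9, but the vehicle region was longer. Moreover, 2 values against 2 cannot give an exact two-sided p under 0.33. Each of the HA and SMAD3 regions met peaks in both lists of the other treatment. In total 4 of 6 GDF9 lists and 4 of 6 vehicle lists covered the start base, a number reached by 35.1% and 39.6% of all genes. No SMAD or PA region held in both replicates lay within 20 kb of *Ptgs2* in the *Smad3*PA/PA line, where 14 peaks with GDF9 and 10 with vehicle were spread over the single lists.

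Acetylation of histone H3 at lysine 27 (H3K27ac), a mark of active promoters and enhancers, covered the *Ptgs2* start in all 8 lists. In *Smad3*PA/PA cells the peaks over the start had a total signal of 24215.8 and 40093.1 with GDF9 and 32658.9 and 44389.4 with vehicle, and the values overlapped. A second region lay in and just past the gene, from 4756 to 8506 bp, in both GDF9 lists (13140.3 and 15871.1) and met no peak of either vehicle list. *Ptgs2* was thus 1 of 10 genes with an H3K27ac region found only with GDF9 in this line, against 3.85% of all genes. In *Smad2*HA/+ cells this stretch lay inside broad acetylated domains with both treatments, and 0 of 10 genes had a region only with GDF9 (2.97% of all genes). Signal was also summed over all peaks that reached *Ptgs2* or 20 kb on either side, each peak counted whole. The sum was 49320 and 73076 with GDF9, against 43234 and 58456 with vehicle in *Smad3*PA/PA cells (log2 fold change 0.26, 95% interval −0.88 to 1.39, limma adjusted p = 1). The *Smad2*HA/+ values were 215080 and 179390 with GDF9, against 170640 and 289670 with vehicle (−0.18, 95% interval −1.17 to 0.81, limma adjusted p = 0.878, and 0.22 with peaks clipped to the window). Neither difference exceeded the spread between replicates.

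**Figure D2:**
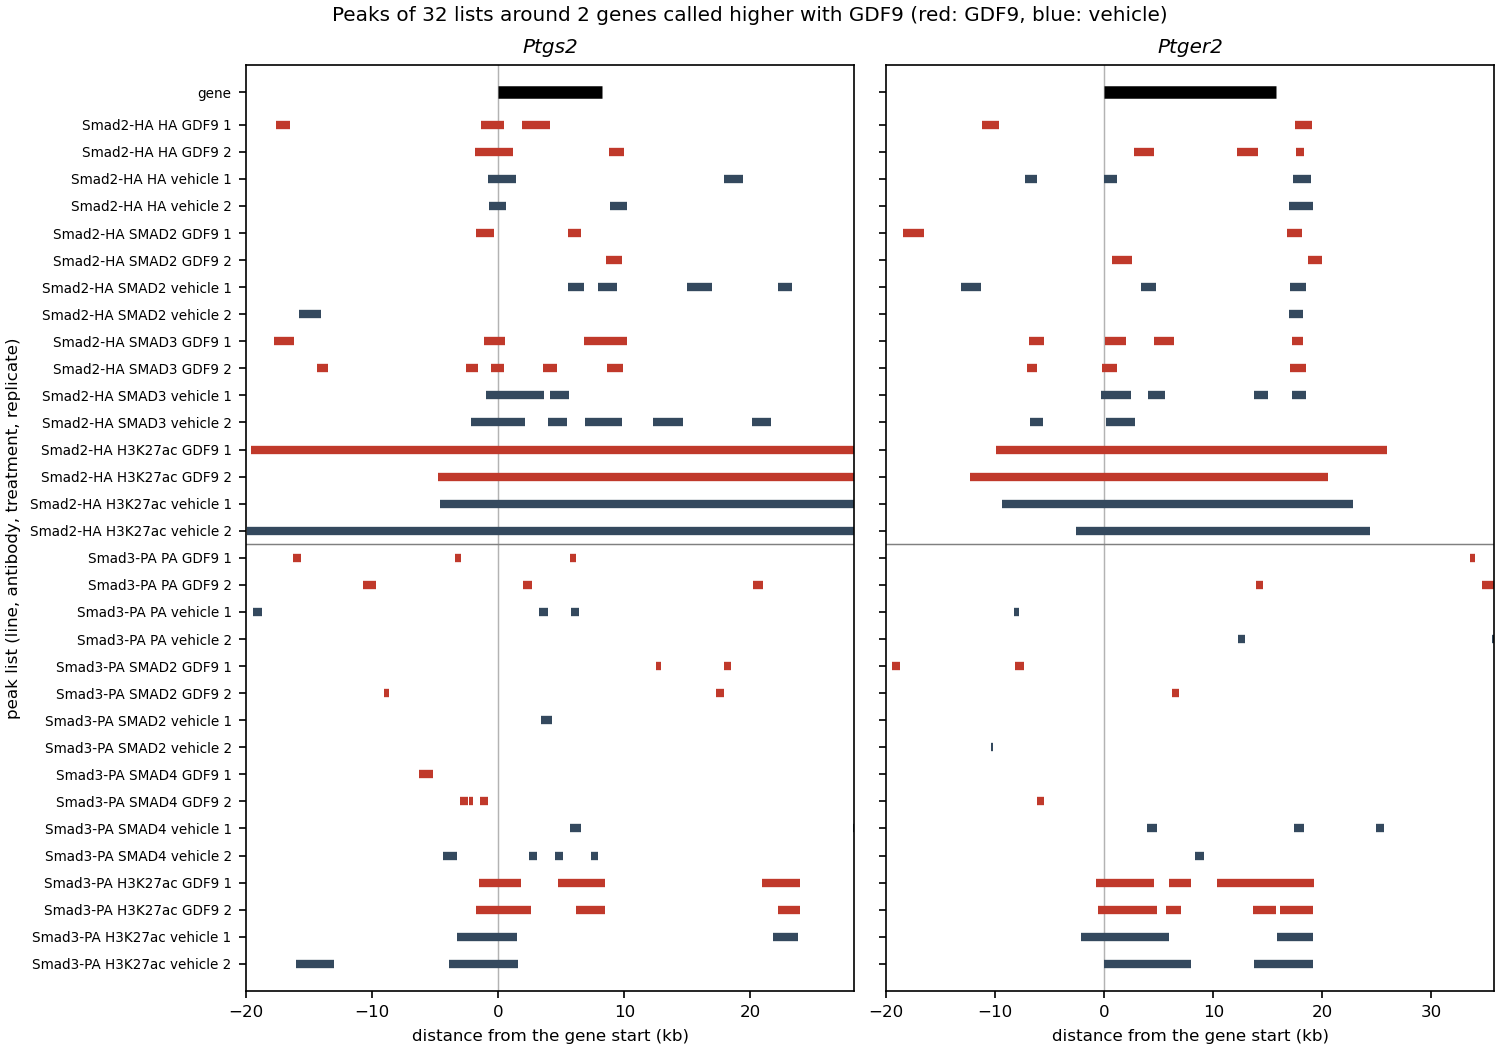
Peaks (horizontal bars) of the 32 lists around *Ptgs2* and *Ptger2*, 1 row per list, by distance from the gene start in kb, with red for GDF9, blue for vehicle and black for the gene. In the *Smad2*HA/+ rows (Smad2-HA, upper part) SMAD and HA peaks stack at the *Ptgs2* start and about 18 kb past the *Ptger2* start, whereas those of the *Smad3*PA/PA rows (Smad3-PA, lower part) are scattered.

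*Ptgs1*, the constitutive cyclooxygenase gene, had 36.3 and 25.2 normalized counts with GDF9 and 27.6 and 31.9 with vehicle. The groups overlapped (log2 fold change 0.03, SE 0.27, 95% interval −0.52 to 0.58, limma adjusted p = 0.981). Per kilobase of exon, *Ptgs2* stood 150 and 210 times above *Ptgs1* with GDF9 and 174 and 145 times with vehicle. The ratio depends on the exon length of *Ptgs1*, which is 2867 bp in curated transcripts and 12411 bp with predicted ones, and with the longer length it was 650 and 910 with GDF9 and 755 and 630 with vehicle. The locus (chr2:36216742-36258593, plus strand) had no H3K27ac peak within 20 kb in any of the 8 lists. SMAD or tag peaks lay near it in both lines, 17 with GDF9 and 17 with vehicle over the 6 lists each of the *Smad2*HA/+ line and 3 and 8 in the *Smad3*PA/PA line, and 1 vehicle list alone covered the start. A SMAD3 region from −29098 to −27496 bp (264.8 and 186.5) was found with GDF9 only.

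Of the 3 terminal synthase genes, none passed the test. *Ptges*, which encodes the microsomal synthase that is coupled to *Ptgs2* in many tissues, had 2063 and 2102 normalized counts with GDF9, against 2022 and 2035 with vehicle. The groups did not overlap, but the difference was small (log2 fold change 0.04, SE 0.04, 95% interval −0.05 to 0.13, limma adjusted p = 0.748). *Ptges2*, the second membrane-associated synthase, had 193 and 216 with GDF9 and 206 and 221 with vehicle (−0.06, 95% interval −0.28 to 0.16, limma adjusted p = 0.845), and these groups overlapped. *Ptges3* encodes a cytosolic protein that is both a synthase and p23, a cochaperone of HSP90. It had 480 and 485 with GDF9, against 508 and 504 with vehicle, with no overlap (−0.07, 95% interval −0.21 to 0.08, limma adjusted p = 0.706). Per kilobase *Ptges* stood above both others, at 571 ± 7.39 with GDF9 and 556 ± 2.48 with vehicle, then *Ptges3* (247 ± 1.59 and 259 ± 1.25) and *Ptges2* (105 ± 8.12 and 109 ± 5.45, normalized counts per kb, SD, n = 2 each). The ratio of *Ptges* to *Ptges3* was 2.30 and 2.32 with GDF9 and 2.13 and 2.16 with vehicle (1.71 and 1.73, against 1.59 and 1.61, with predicted exons included).

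SMAD peaks were most constant at the starts of *Ptges2* and *Ptges3*. In *Smad2*HA/+ cells all 6 GDF9 lists and all 6 vehicle lists covered both start bases, as at 20.8% and 28.1% of all genes. At *Ptges2* (chr2:32395890-32402740, plus strand) anti-HA regions had a total signal of 869.3 and 1126.6 with GDF9 and 827.5 and 1106.1 with vehicle. SMAD3 regions there had 652.2 and 657.6 with GDF9 and 729.8 and 663.5 with vehicle. The values with GDF9 thus lay among or close to those with vehicle. At *Ptges3* (chr10:128058982-128077254, plus strand) anti-HA regions had 879.4 and 1659.6 with GDF9 and 1258.9 and 1342.4 with vehicle. *Ptges2* was also the gene with the most widely shared position at its own start. There 16 of 24 lists of both lines met from −98 to −22 bp (9 of 12 with GDF9 and 7 of 12 with vehicle). As many lists or more met at some position near 15.3% of all genes, a share that counts the gene and 20 kb on either side, not starts alone. The *Ptges2* position is shown because it is the one at the start of a listed gene that both lines shared most.
Ptges2 shared position: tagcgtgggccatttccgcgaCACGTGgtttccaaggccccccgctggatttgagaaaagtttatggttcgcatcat
It lies on chr2:32395792-32395868 (plus strand), and the capitals mark CACGTG from −77 to −72 bp, which 1.16% of windows of 77 bp at anti-HA region centers held. The match also lies in the promoter window of *Ptges2*, and 7.15% of RefSeq promoter windows, which are longer (300 bp), held CACGTG. The SMAD2 region over the *Ptges2* start in *Smad3*PA/PA cells (−1025 to 578 bp, total signal 250.2 and 1132.9 with GDF9) met no vehicle peak of that antibody. The second vehicle list of that antibody held only 23082 peaks, against 78766 in the first and 81283 and 78699 with GDF9. Absence with vehicle is therefore not shown to follow the treatment. The most shared position near *Ptges3* over both lines (17 of 24 lists) lay 102 bp from the start of a neighboring gene, *Atp5b*. Near *Ptges* (chr2:30889471-30931020, minus strand) it lay from −26805 to −25982 bp of the principal start, inside the longer gene model, in all 12 *Smad2*HA/+ lists. Regions of all 3 antibodies were held there with both treatments, with a total signal of 867.5 and 1316.8 with GDF9 and 967.0 and 876.4 with vehicle for HA, and of 979.1 and 618.4 with GDF9 and 1026.2 and 805.9 with vehicle for SMAD3. The start base of *Ptges* itself was covered in 0 of 6 GDF9 lists and 3 of 6 vehicle lists of that line. Of all genes, 54.7% had at least 1 GDF9 list over the start and 43.3% at least 3 vehicle lists. The vehicle regions over the *Ptges* start, of HA (349.0 and 317.9) and SMAD2 (226.7 and 107.5), each met a peak in 1 GDF9 list. Neither therefore counted as found with vehicle only.

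H3K27ac near the synthase genes did not pass the test in either line. Near *Ptges* the summed signal was 65877 and 73407 with GDF9, against 81393 and 114990 with vehicle in *Smad3*PA/PA cells, and the groups did not overlap (log2 fold change −0.48, 95% interval −1.57 to 0.62, limma adjusted p = 1). The same sum in *Smad2*HA/+ cells was 491710 and 270370 with GDF9 and 532760 and 265830 with vehicle, which overlap (−0.05, 95% interval −1.63 to 1.54, limma adjusted p = 0.988, and 0.08 with peaks clipped to the window). *Ptges3* had the highest summed signal of the 10 genes, over a window that also holds *Atp5b*, with 321590 and 432940 with GDF9 and 320560 and 409640 with vehicle in *Smad3*PA/PA cells (0.04, 95% interval −1.02 to 1.10, limma adjusted p = 1). In *Smad2*HA/+ cells the *Ptges3* sums were 1515400 and 1465900 with GDF9, against 1549400 and 1555800 with vehicle, and the groups did not overlap (−0.06, 95% interval −0.21 to 0.09, limma adjusted p = 0.773, and 0.13 with peaks clipped to the window). For *Ptges2* the values in *Smad3*PA/PA cells were 44129 and 63442 with GDF9 and 58485 and 67057 with vehicle (−0.24, 95% interval −1.37 to 0.89, limma adjusted p = 1).

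*Ptger2* encodes EP2, the receptor through which prostaglandin E2 raises cAMP in cumulus cells. It had 511 and 498 normalized counts with GDF9, against 371 and 421 with vehicle, and the groups did not overlap. The means were 504 ± 8.68 and 396 ± 35.3 (SD, n = 2 each), 27.4% higher with GDF9, with a log2 fold change of 0.35 (SE 0.08, 95% interval 0.19 to 0.51, limma adjusted p = 0.00571). The call was lost without vehicle replicate 1 (0.26, limma adjusted p = 0.215), without the filter on low values (limma adjusted p = 0.0646) and with DESeq2 on recovered reads (0.35, DESeq2 adjusted p = 0.267). *Ptger2* lies on chr14:44988111-45003820 (plus strand). Its promoter is shown as the counterpart of that of *Ptgs2*, and it held none of the 8 motifs searched (the 4 above, the SMAD palindrome GTCTAGAC, the full cAMP response element TGACGTCA, the TATA box TATAAA and a kappa-B site). It is also the poorest in G and C of the 9 promoters found, with 37.7% in 300 bp against 59.3% for *Ptgs2* and a median of 52.7% over all promoters.
Ptger2 promoter: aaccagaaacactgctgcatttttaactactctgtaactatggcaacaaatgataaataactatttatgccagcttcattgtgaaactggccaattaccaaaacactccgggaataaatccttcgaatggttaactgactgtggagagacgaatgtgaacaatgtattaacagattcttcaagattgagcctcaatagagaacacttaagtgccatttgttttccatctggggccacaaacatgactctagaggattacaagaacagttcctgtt
This stretch spans chr14:44987861-44988135 (−250 to 24 bp, plus strand). The position most shared between SMAD and tag lists of the *Smad2*HA/+ line lay past the other end of the gene, from 17535 to 18085 bp after the start, outside any annotated gene. It was covered in 10 of 12 lists (5 of 6 with each treatment), a number that 56.7% of all genes reached at some position nearby. In *Smad3*PA/PA cells 1 SMAD4 vehicle list had a peak there and the other 11 SMAD or PA lists none. The central 300 of its 551 bp are shown, since this is the place near *Ptger2* where most SMAD peaks met.
Ptger2 shared position: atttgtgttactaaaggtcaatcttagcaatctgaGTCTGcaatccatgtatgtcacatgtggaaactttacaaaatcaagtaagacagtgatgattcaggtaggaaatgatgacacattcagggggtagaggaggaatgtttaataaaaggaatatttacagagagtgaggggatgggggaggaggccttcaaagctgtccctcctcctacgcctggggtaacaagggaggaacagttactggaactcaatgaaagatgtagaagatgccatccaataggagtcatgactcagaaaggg
They span chr14:45005772-45006071 (plus strand) and hold CAGAC once, on the reverse strand from 17696 to 17700 bp, in capitals. Of windows of 300 bp at anti-HA region centers, 49.4% held CAGAC. Anti-HA regions here had a total signal of 427.9 and 382.8 with GDF9 and 342.1 and 430.3 with vehicle, which overlap. SMAD3 regions lay over the *Ptger2* start with both treatments, with 293.7 and 329.5 with GDF9 and 721.1 and 453.8 with vehicle. Both SMAD3 values at the start were lower with GDF9, but 2 values against 2 cannot give an exact two-sided p under 0.33, and the vehicle peaks were longer.

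H3K27ac peaks covered the *Ptger2* start and the shared position past its end in all 8 lists. The summed signal of whole peaks that reached the gene or 20 kb on either side was 77752 and 115750 with GDF9, against 64794 and 104360 with vehicle in *Smad3*PA/PA cells (log2 fold change 0.21, 95% interval −0.88 to 1.29, limma adjusted p = 1). The *Smad2*HA/+ values were 216200 and 203590 with GDF9, against 190650 and 171650 with vehicle, and the groups did not overlap (0.21, 95% interval −0.10 to 0.53, limma adjusted p = 0.773). Neither passed the test.

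**Figure D3:**
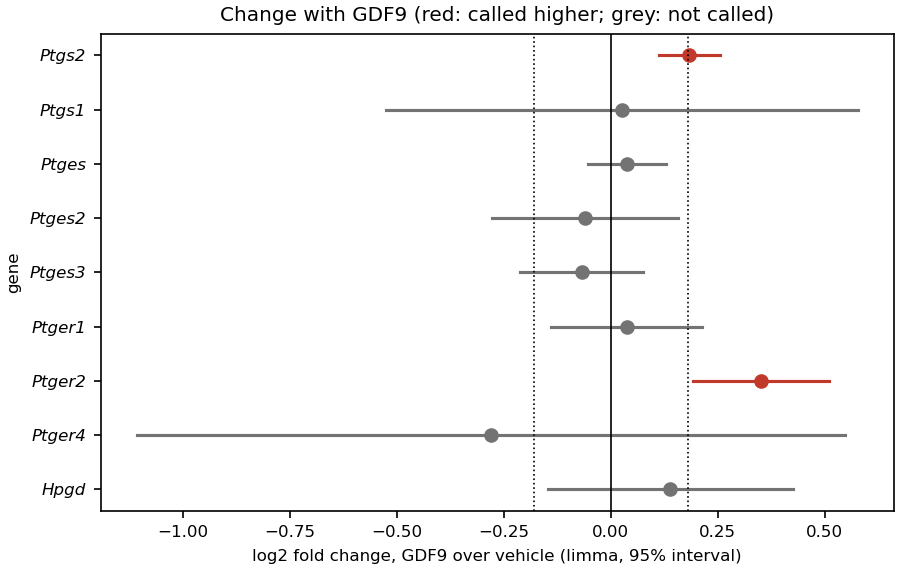
Log2 fold change with GDF9 over vehicle (points) and 95% interval (lines, limma) of the 9 genes tested, with dotted lines at the limit of 0.18 in either direction. *Ptgs2* (0.18) and *Ptger2* (0.35) were called higher (red), and the intervals of the other 7 (gray) include 0.

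The other EP receptor genes did not pass the test. *Ptger1*, the gene of EP1, had 346 and 316 normalized counts with GDF9 and 332 and 314 with vehicle (log2 fold change 0.04, 95% interval −0.14 to 0.21, limma adjusted p = 0.894), with overlapping groups. Because the strand setting of the counting is not given, reads from the opposite strand of this locus (chr8:83666644-83672756, plus strand) may be among them, and the level of *Ptger1* is uncertain. *Ptger4*, the gene of EP4, the second cAMP-raising receptor, had 19.1 and 7.74 with GDF9 and 16.1 and 14.2 with vehicle. The GDF9 libraries lay on both sides of the vehicle libraries (−0.28, 95% interval −1.11 to 0.55, limma adjusted p = 0.801). *Ptger3*, the gene of EP3, had 6.04 and 4.84 with GDF9 and 9.19 and 5.32 with vehicle, from 5 to 8 reads a library. With the filter on low values left out, its log2 fold change was −0.32 (limma adjusted p = 0.785).

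Per kilobase of exon, *Ptger1* and *Ptger2* made up nearly all of the EP receptor RNA. *Ptger2* took 43.6% and 45.8% of the summed level of the 4 genes with GDF9, against 36.8% and 41.5% with vehicle. *Ptger1* took 53.6% and 52.6%, against 59.7% and 56.0%. These shares rest on the uncertain reads of *Ptger1* and on its exon length, which is 2080 bp in curated transcripts and 5382 bp with predicted ones. With the longer lengths *Ptger2* took 62.8% and 65.5% with GDF9, against 55.9% and 61.0% with vehicle, and *Ptger1* took 32.8% and 32.01%, against 38.5% and 35.0%, so that which of them was higher is not settled. Under both lengths the share of *Ptger2* was higher in both GDF9 libraries than in both vehicle libraries. *Ptger4* took 1.85% and 0.805% against 1.81% and 1.58%, and *Ptger3* 0.917% and 0.790% against 1.62% and 0.931%. The cAMP-raising receptor EP4 was therefore scarce at the RNA level, as *Ptger2* stood 23.6 and 56.8 times above *Ptger4* with GDF9 and 20.4 and 26.2 times with vehicle. In order of their level per kilobase with GDF9, the 10 genes ran from *Ptgs2* through *Ptges*, *Ptges3*, *Ptger1*, *Ptger2*, *Ptges2*, *Hpgd*, *Ptgs1* and *Ptger4* to *Ptger3*. With predicted exons included, *Ptger1* moved below *Hpgd* (61.6 ± 3.95 with GDF9 and 59.98 ± 2.40 with vehicle) and *Ptgs1* to the last place, within the spread of *Ptger3* (2.47 ± 0.632 and 2.40 ± 0.247), whereas the order of the other 8 genes stayed. *Ptger2* (134 ± 2.30 with GDF9 and 105 ± 9.37 with vehicle, normalized counts per kb) stood above *Ptges2* (105 ± 8.12 and 109 ± 5.45) with GDF9, whereas with vehicle the spread of these genes overlapped. *Ptger4* (4.04 ± 2.42 and 4.55 ± 0.404) and *Ptger3* (2.57 ± 0.402 and 3.42 ± 1.29) were also within their spread of each other.

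The start of *Ptger4* (chr15:5233399-5244187, minus strand) was covered by SMAD or HA peaks in 3 of 6 GDF9 lists and 5 of 6 vehicle lists of the *Smad2*HA/+ line, although its RNA was scarce. Anti-HA regions there had a total signal of 451.8 and 467.9 with GDF9 and 419.4 and 346.0 with vehicle. SMAD3 peaks formed a region over it with vehicle (696.6 and 765.5) that was not counted as found with vehicle only, since it met a peak in 1 GDF9 list. H3K27ac peaks near *Ptger4* were missing from 1 vehicle list in *Smad3*PA/PA cells and from 1 GDF9 list in *Smad2*HA/+ cells, and the gene was not tested for that mark. The start of *Ptger3* (chr3:157566821-157644758, plus strand) was covered in 1 GDF9 list and 0 vehicle lists, and *Ptger3* was the 1 gene of the 10 with no SMAD or HA region held in both replicates in that line. Near *Ptger1* the most shared position was at the start of its neighbor *Gipc1*, from −14552 to −13625 bp, in 10 of 12 lists (4 of 6 with GDF9 and 6 of 6 with vehicle).

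*Hpgd*, whose product oxidizes prostaglandin E2 to an inactive form, had 131 and 114 normalized counts with GDF9 and 107 and 115 with vehicle. The groups overlapped (log2 fold change 0.14, 95% interval −0.15 to 0.43, limma adjusted p = 0.693). Per kilobase, *Ptgs2* stood 24.9 and 27.8 times above *Hpgd* with GDF9 and 26.99 and 24.1 times with vehicle, so that the balance of the synthetic and the inactivating gene differed by less than its spread. At the *Hpgd* start (chr8:56294552-56321046, plus strand) 1 of 6 GDF9 lists and 4 of 6 vehicle lists of the *Smad2*HA/+ line had a SMAD or HA peak. Of all genes, 54.7% had at least 1 such GDF9 list and 39.6% at least 4 such vehicle lists. The SMAD3 region over the *Hpgd* start (−1636 to 535 bp, total signal 299.7 and 191.7 with vehicle) met no GDF9 peak of that antibody. An anti-HA region over the same start (−1289 to 785 bp, 279.2 and 326.6 with vehicle) met peaks in 2 GDF9 lists of its antibody. Upstream of the gene, from −16485 to −15843 bp, 11 of 12 lists shared a position, where anti-HA regions had 368.7 and 494.2 with GDF9 and 349.1 and 392.7 with vehicle. A different SMAD3 region, from 9128 to 11262 bp inside the gene (338.0 and 224.5), was found with GDF9 only.

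**Figure D4:**
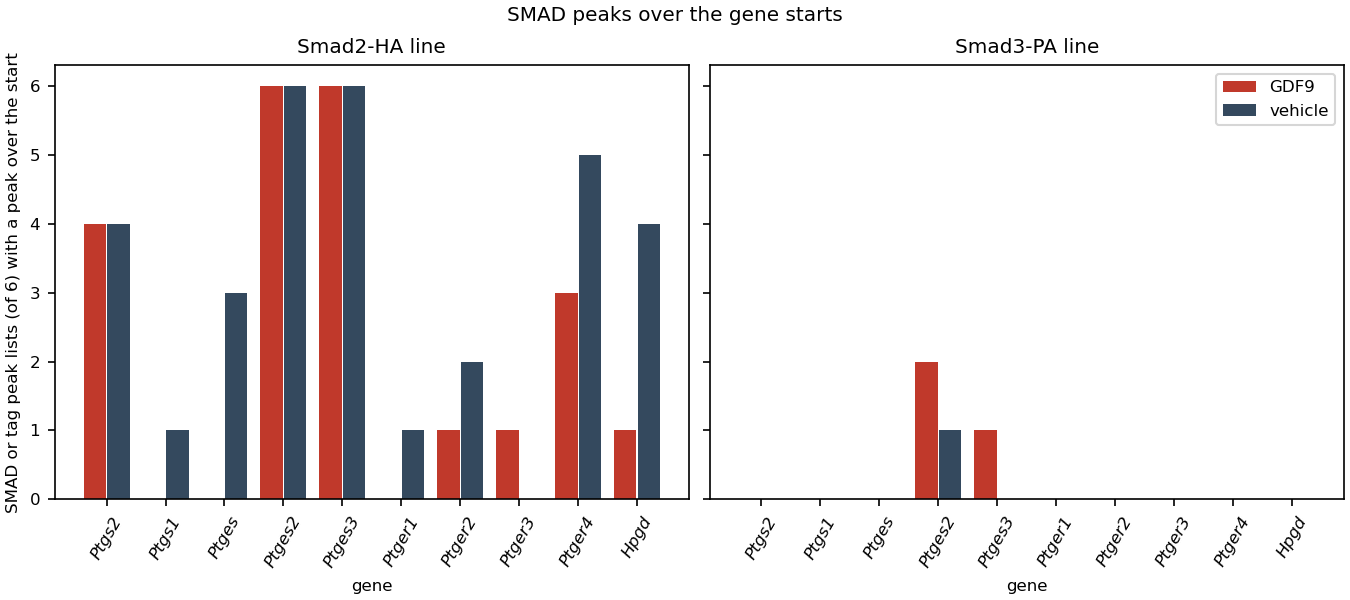
Number of SMAD or tag peak lists (of 6 per treatment and line) with a peak over the start base of each gene, with red for GDF9 and blue for vehicle. In the *Smad2*HA/+ line (left) *Ptges2* and *Ptges3* reach 6 of 6 with both treatments and *Ptgs2* 4 of 6, and in the *Smad3*PA/PA line (right) *Ptges2* and *Ptges3* alone have any.

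Across the 10 genes, SMAD regions found with 1 treatment only were few, at 0 to 2 genes for each antibody and treatment, against 1.98% to 16.6% of all genes. In *Smad3*PA/PA cells the SMAD2 antibody, whose second vehicle list held only 23082 peaks, gave 1 of 10 genes with a region only with GDF9 (*Ptges2*, against 13.5% of all genes) and 0 only with vehicle (1.98%). The PA antibody, which marks tagged SMAD3, gave 0 (9.06%) and 0 (5.77%). SMAD4, the common partner of SMAD2 and SMAD3, gave 1 only with GDF9 (*Ptger1*, at the *Gipc1* start, 14.3%) and 0 only with vehicle (14.3%). In *Smad2*HA/+ cells the SMAD2 antibody gave 1 only with GDF9 (*Ptger4*, 11.2%) and 0 only with vehicle (14.7%). The HA antibody gave 0 (8.30%) and 1 (*Ptges3*, 12.0%), and SMAD3 gave 2 (*Ptgs1* and *Hpgd*, 8.17%) and 1 (*Hpgd*, 16.6%). Neither called gene, *Ptgs2* or *Ptger2*, was among these. SMAD, PA or HA regions near the 10 genes numbered 3 with GDF9 and 1 with vehicle in the *Smad3*PA/PA line, and 41 and 57 in the *Smad2*HA/+ line. Genome-wide, *Smad2*HA/+ regions with GDF9 and with vehicle numbered 18471 and 19389 (SMAD2), 24635 and 30335 (HA), and 26154 and 32423 (SMAD3). Those of the *Smad3*PA/PA line numbered 9006 and 1736 (SMAD2), 9672 and 4319 (PA), and 9185 and 11622 (SMAD4). Fewer regions with GDF9 in *Smad2*HA/+ cells were thus not particular to the 10 genes.

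That contrast between lines went with the agreement of replicates. Of SMAD or PA peaks of replicate 1 near the 10 genes in *Smad3*PA/PA cells, between 0% and 13.3% met a peak of replicate 2 for each antibody and treatment, whereas in *Smad2*HA/+ cells 37.5% to 66.7% did. For H3K27ac it was 80.0% to 91.7%. Over all peaks of replicate 1 the shares were 2.2% to 17.4% in *Smad3*PA/PA cells, 25.8% to 50.3% in *Smad2*HA/+ cells and 79.2% to 89.6% for H3K27ac. The SMAD, PA or HA peaks of replicate 1 had median lengths of 541 to 824 bp in *Smad3*PA/PA cells and 1326 to 1783 bp in *Smad2*HA/+ cells. The part of peak length in this overlap was not tested. A region missing from the *Smad3*PA/PA line is therefore not shown to be absent. Peaks over the start base were found at 7 genes with GDF9 and 9 with vehicle in at least 1 of 6 *Smad2*HA/+ lists (54.7% and 55.9% of all genes), and at 2 and 1 in *Smad3*PA/PA lists (25.4% and 19.2%).

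For H3K27ac, total signal was summed over all peaks that reached a gene or 20 kb on either side. Peaks counted whole, also where they ran past this window. The sums were tested with limma in genes with a peak in all 4 lists of a line, which held for 7 of the 10 genes in each line. None was called in either line. Over all genes, 0.00723% were called higher and 0.0217% lower in *Smad3*PA/PA cells (of 13830 tested), and 0.0855% and 0.619% in *Smad2*HA/+ cells (of 15196 tested). At an unadjusted p under 0.05 there were 183 and 1056 genes in all, and the median log2 fold change of all genes was −0.11 and −0.06. Log2 fold changes of the 7 genes ran from −0.48 to 0.26 in *Smad3*PA/PA cells (3 positive and 4 negative, limma adjusted p = 1 for each) and from −0.18 to 0.21 in *Smad2*HA/+ cells (4 positive and 3 negative, lowest limma adjusted p = 0.773). The lists differed in kind between lines, with median peak lengths of 2940 to 3288 bp and 108 to 130 Mb covered in *Smad3*PA/PA cells, and 18565 to 29257 bp and 455 to 471 Mb in *Smad2*HA/+ cells. An H3K27ac region only with vehicle was found at *Ptger1* in *Smad3*PA/PA cells (25690 to 28492 bp, 1 of 10 genes against 6.31% of all), and at 0 of 10 in *Smad2*HA/+ cells (0.175%). The start base lay under a peak in both lists for 5 genes with GDF9 and 4 with vehicle in *Smad3*PA/PA cells (33.1% and 33.4% of all genes), and for 5 and 6 in *Smad2*HA/+ cells (43.8% and 42.4%).

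**Figure D5:**
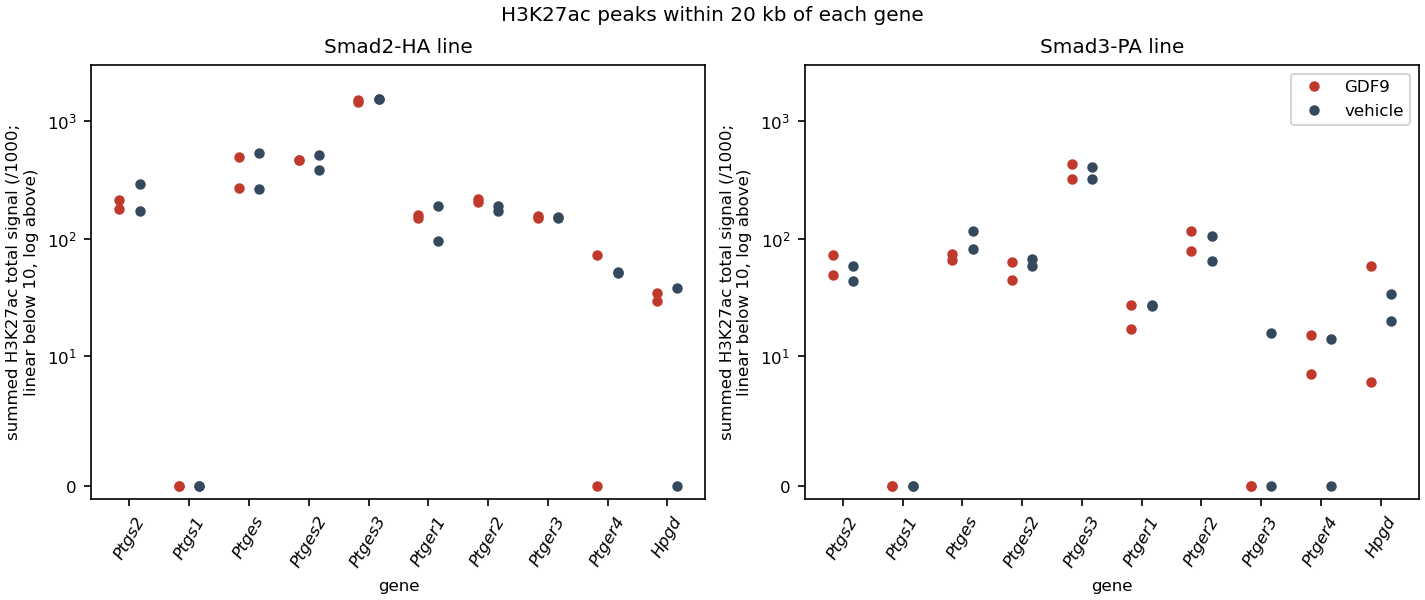
Summed H3K27ac total signal (divided by 1000, 1 point per list) of whole peaks that reach each gene or 20 kb on either side, on an axis that is linear below 10 and logarithmic above, for *Smad2*HA/+ (left) and *Smad3*PA/PA cells (right), with red for GDF9 and blue for vehicle. *Ptges3* has the highest signal and *Ptgs1* is at 0 in every list, and GDF9 and vehicle points overlap or lie close together for most genes.

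Other genes of the pathway were read from 5 lists of 58 names, which matched 55 genes with values, and 44 of these could be tested. Among them 1 rose and 1 fell, a number close to the 2.44% and 0.707% of all genes called, and the median log2 fold change was −0.01, equal to that of all genes tested (−0.01) to 2 decimals. The gene that rose was *Slco3a1*, an organic anion transporter that carries prostaglandins, with 1140 and 1072 normalized counts with GDF9, against 941 and 927 with vehicle (log2 fold change 0.24, SE 0.06, limma adjusted p = 0.00759). The call was lost without GDF9 replicate 1, without either vehicle replicate, without the filter on low values and with DESeq2. It was 1 of 6 breakdown and transport genes tested, and *Slco2a1*, the prostaglandin uptake transporter, had 1200 and 1038 against 1092 and 1111 (0.02, limma adjusted p = 0.925). The reductase genes *Zadh2* (−0.01) and *Ptgr1* (−0.11) were not called either. The gene that fell was *Prkar2b*, a regulatory subunit of the cAMP-dependent kinase PKA, with 1517 and 1384 with GDF9, against 1820 and 1754 with vehicle (−0.30, SE 0.05, limma adjusted p = 0.000195). It was 1 of 15 cAMP signal genes tested, among which *Gnas*, the G protein that EP2 and EP4 use, had 9864 and 9730 against 9745 and 9886 (0.00 to 2 decimals, limma adjusted p = 0.984). The PKA subunit genes *Prkar1a* (−0.06) and *Prkacb* (−0.11) did not pass.

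Upstream of the cyclooxygenases, 0 of 12 tested genes of arachidonic acid release were called. The highest of them were *Anxa1*, an inhibitor of phospholipase action, with 2549 and 2690 against 2863 and 2842 (−0.12, limma adjusted p = 0.116), and *Acsl4*, which returns arachidonic acid to lipids, with 2661 and 2534 against 2984 and 2754 (−0.14, limma adjusted p = 0.0749). In both, each GDF9 library lay under each vehicle library without passing the test. *Lpcat3*, which also places arachidonic acid in membranes, had 2195 and 2063 against 2133 and 2150. None of the 8 tested genes of other prostanoid synthases and reductases was called, among which *Akr1b3* (−0.01), *Akr1b8* (0.06) and *Cbr1* (0.08) were highest. Of other prostanoid receptors and partners, 0 of 3 tested were called, namely *Ptgfr*, the receptor of prostaglandin F2α (109 and 132 against 133 and 129), its regulator *Ptgfrn* (1593 and 1609 against 1737 and 1752, −0.12, limma adjusted p = 0.163) and *Pparg* (0.07).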

How the data were processed

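The 4 RNA-seq libraries were made from poly-A RNA with a strand-specific kit. The authors aligned reads to mm10 with STAR 2.7.11b, counted them per gene with featureCounts 2.1.1 and deposited normalized counts from DESeq2 1.48.2, a signal in which reads are divided by 1 size factor per library. For the counting strand and annotation, the setting is not given in the sources used here. For CUT&RUN, the authors aligned reads with Bowtie2, scaled coverage to an Escherichia coli spike-in and called peaks per sample with SEACR, and the deposited lists give each peak's total and maximum signal. Whether the IgG control entered the peak calling was likewise not stated. Of the RNA table, 3 columns without a header were not used.

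Normalized counts were whole multiples of 1 step per library (100% of values, within 0.05 reads), and reads recovered in this way entered the edgeR and DESeq2 alternatives. Changes were tested with limma 3.58.1 (R 4.3.3, edgeR 4.0.16, DESeq2 1.42.0) on log2(value + 1), with Benjamini-Hochberg adjustment over all genes tested and fold changes on that scale. H3K27ac was tested likewise on summed total signal of peaks reaching a gene or 20 kb on either side. SMAD regions were compared as descriptions, since 2 lists against 2 cannot give a two-sided exact p under 0.33. The scripts were tested on simulated data. Gene positions, promoters and sequences are those of RefSeq (GRCm38.p6), and 25183 of 25865 genes matched by identifier, of which 25168 on chromosomes 1 to 19, X and Y formed the background of regions. Promoter entries matched 9 of the 10 genes (not *Ptger1*). The alternatives were no filter, TMM, edgeR, DESeq2, a replicate block, other windows, overlaps and peak thresholds, and each replicate left out. Signal clipped to the window and exon lengths with predicted transcripts were chosen after seeing the data. The genes and lists were chosen with earlier results of these data known, and the sequences after their values were seen. All 10 genes are named, with called genes of the other lists and up to 3 more per list by mean level. *Gipc1*, *Atp5b* and *Ptgs2os* were named after their positions were seen. One item is not reported here.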

Additional observations from a re-analysis of the deposited data

How the results depend on the processing

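Both calls among the 10 genes were near a limit. Of 2 genes called higher, 1 remained without a filter on low values, 1 with TMM and 1 with DESeq2, and 1 to 2 without single replicates. *Ptgs2* had a log2 fold change of 0.18 with TMM, just under the limit, and 0.16 to 0.21 without single replicates, and was not called without GDF9 replicate 1 (0.16) or vehicle replicate 2 (0.16, limma adjusted p = 0.115). *Ptger2* had a limma adjusted p of 0.0646 without the filter and ran from 0.26 to 0.44 without single replicates. With edgeR both were called (0.19, edgeR adjusted p = 0.000752, and 0.34, edgeR adjusted p = 0.00555). *Slco3a1* was lost without the filter and with DESeq2 (0 of 44 called higher each), and 0 to 1 were called without single replicates (0 without GDF9 replicate 1 or either vehicle replicate). Without single replicates the sign turned for *Ptgs1* (−0.23 to 0.28), *Ptges2* (−0.14 to 0.019), *Ptger1* (−0.028 to 0.10) and *Ptger4* (−0.88 to 0.32). Over all genes, 307 higher and 89 lower became 161 and 26 without the filter, 112 and 16 with DESeq2, and 190 to 366 and 20 to 220 without single replicates. Samples with the same replicate number did not deviate together (r = 0.0050 across 12597 genes). With 2 samples per treatment this cannot decide whether they came from a shared pool of cells, which the methods do not state. The replicate block gave 142 genes lower and kept both calls (*Ptgs2* limma adjusted p = 7.75e-07, *Ptger2* 0.000282).

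Pairs of gene and antibody (30 per line) with a SMAD region only with GDF9 numbered 2 in *Smad3*PA/PA cells, and 0 with an overlap of 50%, 1 with the stronger 50% of peaks, 1 within 5 kb and 1 within 3 kb of the start. Only with vehicle there were 0. In *Smad2*HA/+ cells 3 pairs only with GDF9 became 0 with the stronger peaks, 1 within 5 kb and 0 within 3 kb, and 2 pairs only with vehicle became 1 under each of the 4 settings. With a single list per treatment the numbers were 20 to 22 only with GDF9 and 22 to 24 only with vehicle in *Smad3*PA/PA cells, and 18 to 24 and 21 to 22 in *Smad2*HA/+ cells, since a region then needs 1 list.

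None of the 10 genes was called for H3K27ac under the alternatives run. Over all genes in *Smad3*PA/PA cells, 1 higher became 0 within 5 kb, 0 with the stronger peaks, 0 with the replicate block, 0 with both lines in 1 fit, 0 with clipped signal and 2 with centered lists, and 3 lower became 0 with each of centering, stronger peaks, the block and both lines. Without single replicates each was 0 to 3. In *Smad2*HA/+ cells, 13 higher and 94 lower became 0 and 0 with the block, both lines or clipped signal and without single replicates, and 150 lower within 5 kb. Near *Ptgs2* the log2 fold change turned to −0.24 with the stronger peaks in *Smad3*PA/PA cells (−0.028 to 0.54 without single replicates), and to 0.039 with both lines and 0.22 with clipped signal in *Smad2*HA/+ cells (−0.56 to 0.20). Near *Ptger2* it was −0.084 with the stronger peaks in *Smad3*PA/PA cells (−0.14 to 0.55). With clipped signal the sign also turned at *Ptger1* in *Smad3*PA/PA cells (0.38). In *Smad2*HA/+ cells it also turned at *Ptges* (0.08), *Ptges2* (−0.12) and *Ptges3* (0.13). Elsewhere among the listed genes tested, clipping kept the sign. The cause of these changes was not tested. With 2 samples per treatment and few reads, changes of *Ptger4* and *Ptgs1* inside their intervals were not detectable, and *Ptger3* lay under the filter.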
